A study of Cyprinus carpio with 12 samples.

Results

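The regions described here are the differentially methylated regions (DMRs) that lie near the ends of the chromosomes of common carp, Cyprinus carpio. A region was taken when its midpoint lay within 1 Mb of the first base of a chromosome or within 1 Mb of the last position at which either list held a region on that chromosome. The 50 chromosomes, A1 to A25 and B1 to B25, thus gave 100 ends, which cover 6.54% of the 1529 Mb. Of 37879 sperm regions on chromosomes, 2580 lay at an end (6.81%), and of 35962 embryo regions 2427 did (6.75%). Together these are 5007 of the 80043 regions in both lists. With unplaced sequence the lists hold 41022 sperm and 39021 embryo regions, more than the DMRs that the paper counts for each. Its methods give a fold-change limit, whereas the lists have a minimum difference in level. The lists are therefore not to be read as the set counted in the paper. The position chose the regions and no methylation value did.

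DNA methylation was read by whole-genome bisulphite sequencing in 4 groups of 3 libraries each: fresh sperm (day 0), sperm kept for 14 days after stripping, mid-blastula embryos obtained with fresh sperm and mid-blastula embryos obtained with the 14-day-stored sperm. All males and the female had been injected with carp pituitary, a hormone preparation that brings on the release of sperm and eggs, and no strain or transgene is named for any group. The methods state that the sperm of the same mature males was used fresh and stored in artificial seminal plasma, and that all eggs came from 1 female. They also state that 3 males gave the sperm DNA and that 50 to 60 mid-blastula embryos were used for embryo DNA. The methods mention repeated hormone injection and stripping of males but do not say whether a male was stripped once for both, so storage and the date of stripping or of fertilisation cannot be told apart. The lists hold 1 level per group and region, with no value per library and no depth, so that no level below carries an error. They hold only regions that differed by at least 10 percentage points (points below), and they carry no expression of marker genes against which the labels could be checked. Words such as "went from" compare the fresh with the stored group, and "hyper" means a higher and "hypo" a lower level in the stored group.

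In vertebrates most CpG sites of the genome are methylated, and unmethylated stretches lie mainly at promoters and other regulatory sequence. Chromosomes end in telomeres, short repeats that protect the end, and the subtelomeric sequence next to them is often rich in repeats, segmental duplications and tandem arrays of RNA genes. In zebrafish, a relative of carp, the methylation pattern of sperm is largely taken over by the embryo before its own transcription starts.

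The ends did not hold a detectably different number of regions from the rest of the chromosomes. Per chromosome, the sperm list held 25.8 ± 6.84 regions per Mb at the ends and 24.4 ± 2.76 in the rest (mean ± SD, n = 50), a difference of 1.39 ± 7.09 that was positive in 26 chromosomes and negative in 24 (sign-flip permutation test over chromosomes, two-sided, P = 0.172, adjusted over 26 tests to 0.299). The embryo list held 24.3 ± 7.75 against 23.1 ± 2.92 per Mb, higher in 29 chromosomes and lower in 21 (adjusted P = 0.445, permutation test). This test, which was used for all comparisons below, measures the spread between chromosomes and not between libraries.

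Single ends differed widely. The sperm list held from 7 to 63 regions per end (median 25), and the embryo list from 6 to 65 with a median of 24.5. Windows of 1 Mb in the rest of the chromosomes ran from 3 to 62 in sperm and from 2 to 67 in embryos. The ends with the most sperm regions were the first Mb of B13 (63) and B19 (53), the last Mb of A2 (43), the first Mb of B3 (43) and the first Mb of A22 and of A24 (42 each). The first Mb of B7 held 7, the last Mb of A13 and of B20 held 11 each, and the first Mb of B1 and the last Mb of B7 held 12 each. In embryos the first Mb of B3 (65) and of B13 (61) led, followed by the first Mb of A9 and the last Mb of A22 (48 each) and the first Mb of B8 (43). The fewest embryo regions were listed in the first Mb of B22 (6) and in the last Mb of B7 and of B20 (7 each), and the first Mb of A5 and of B7 and the last Mb of B18 held 8 each.

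**Figure D1:**
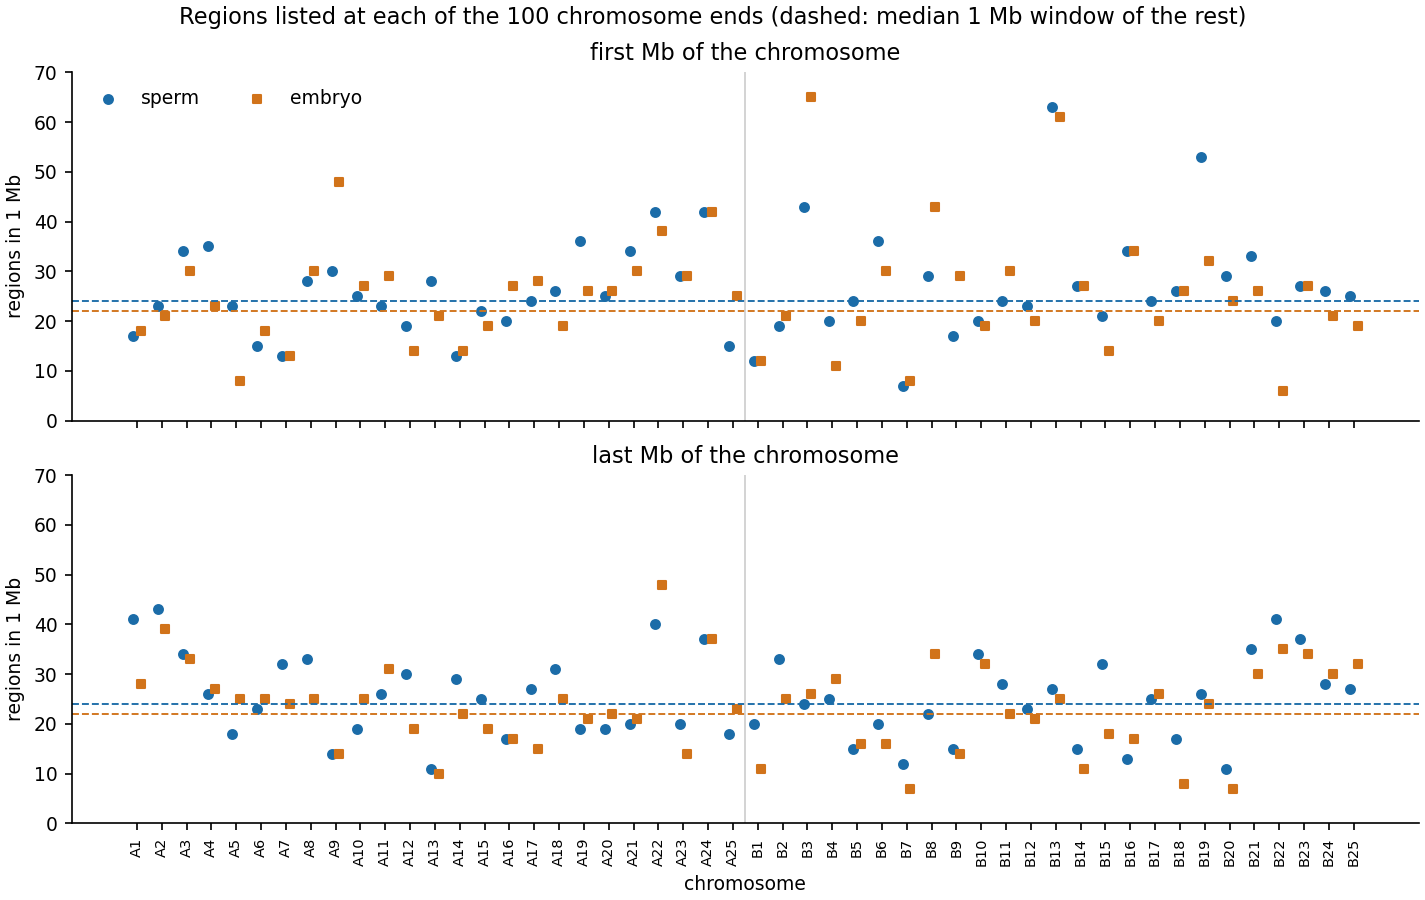
Regions listed in the first and the last Mb of each chromosome (x axis, A1 to B25; y axis, number of regions in 1 Mb), for sperm (circles) and embryos (squares); dashed lines give the median 1 Mb window of the rest, 24 in sperm and 22 in embryos. The first Mb of B13 stands high in both lists, with 63 and 61 regions, and both ends of B7 stand low.

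The number of regions at an end was alike in the 2 lists. Over the 100 ends the sperm and embryo counts had r = 0.765 and rho = 0.744, which is given as a description because both lists read the same assembly and so share its CpGs, gaps and mappable sequence. For the share of hyper regions at an end, r was 0.102 and rho 0.0603. The median end held 25 sperm and 24.5 embryo regions, so each share carries a wide counting error. The low r therefore cannot tell whether the lists agree in direction by end. The first and the last Mb of a chromosome did not differ detectably in density in sperm (26.5 ± 10.2 and 25.1 ± 8.48 per Mb, n = 50, adjusted P = 0.596, permutation test) or in embryos (25.4 ± 11.7 and 23.2 ± 8.75 per Mb, adjusted P = 0.413). Neither did the ends of A and B chromosomes of the same number, the 2 subgenomes of this allotetraploid fish, with a mean A less B difference of 0.120 ± 9.05 per Mb in sperm (n = 25, adjusted P = 0.957, permutation test) and 0.740 ± 10.1 per Mb in embryos (adjusted P = 0.775).

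End regions were less often hyper than other regions in stored sperm. Of the 2580 sperm regions at ends 1503 were hyper and 1077 hypo, so that 58.3% were hyper (95% Wilson interval 56.3 to 60.1, which takes regions as independent and covers counting error only), where 62.3% of all sperm regions on chromosomes were hyper. By chromosome the share was 58.3 ± 7.91% at the ends and 62.8 ± 2.35% in the rest. The difference of −4.46 ± 7.96 points was negative in 38 of 50 chromosomes (adjusted P = 0.00251, permutation test). It ran from −26.2 points on A13, where 38.5% of end regions were hyper, to 13.3 points on A7, where 71.1% were. The share was lower at the ends in each class of methylation level, but only at 75% or more did its Wilson interval exclude the share of the rest. At a mean level of 75% or more, 64.3% (62.1 to 66.4) were hyper at the ends and 67.9% in the rest. Between 25% and 75% the shares were 39.0% (34.9 to 43.2) and 42.5%. Below 25%, with 89 end regions, they were 39.3% (29.8 to 49.7) and 43.5%, and these 2 lower classes were not tested on their own. Hyper regions outnumbered hypo regions at 73 of the 100 ends, equalled them at 8 and were fewer at 19.

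Embryos did not show this. Of 2427 embryo regions at ends 1246 were hyper and 1181 hypo, which is 51.3% (49.4 to 53.3) against 50.4% of all embryo regions on chromosomes. By chromosome the shares were 51.8 ± 7.55% and 50.5 ± 2.39%, higher at the ends of 30 chromosomes and lower in 20 (adjusted P = 0.370, permutation test). The difference between sperm and embryos was itself tested. The contrast of ends with rest was lower in sperm than in embryos by a mean of −5.81 ± 9.88 points, with the sign negative in 36 of 50 chromosomes (adjusted P = 0.00117, permutation test). By the same permutation test no such difference between the lists was detected for density (adjusted P = 0.775), for large differences (adjusted P = 0.698) or for the share of highly methylated regions (adjusted P = 0.445).

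Large differences were more frequent at the ends in both lists. In sperm 287 end regions (11.1%) differed by at least 20 points, where 9.03% of all sperm regions on chromosomes did. By chromosome the share was 10.9 ± 5.13% at ends and 8.73 ± 1.48% in the rest, higher in 35 of 50 chromosomes (difference 2.20 ± 5.06 points, adjusted P = 0.00899, permutation test). In embryos 286 end regions (11.8%) passed 20 points, where 9.74% of all did, and the chromosome means were 12.1 ± 5.64% and 9.40 ± 1.43%, higher at the ends of 33 chromosomes (difference 2.74 ± 6.00 points, adjusted P = 0.00899, permutation test). Chromosome B2 had the highest contrast in each list, with 25% of its sperm and 23.9% of its embryo end regions past 20 points against 6.13% and 7.64% in its rest. Large differences at the ends leaned to hypo in sperm, where 121 of 287 were hyper (42.2%, 36.6 to 47.9), and to hyper in embryos, where 164 of 286 were (57.3%, 51.6 to 62.9). In the rest these shares were 44.7% and 51.7%. By level class, large differences made up 4.38% of highly methylated sperm regions at ends and 2.86% in the rest, and 4.73% and 3.32% in embryos. Between 25% and 75%, where most large differences lay, ends and rest were close (34.2% and 34.002% in sperm, 35.4% and 34.6% in embryos).

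**Figure D2:**
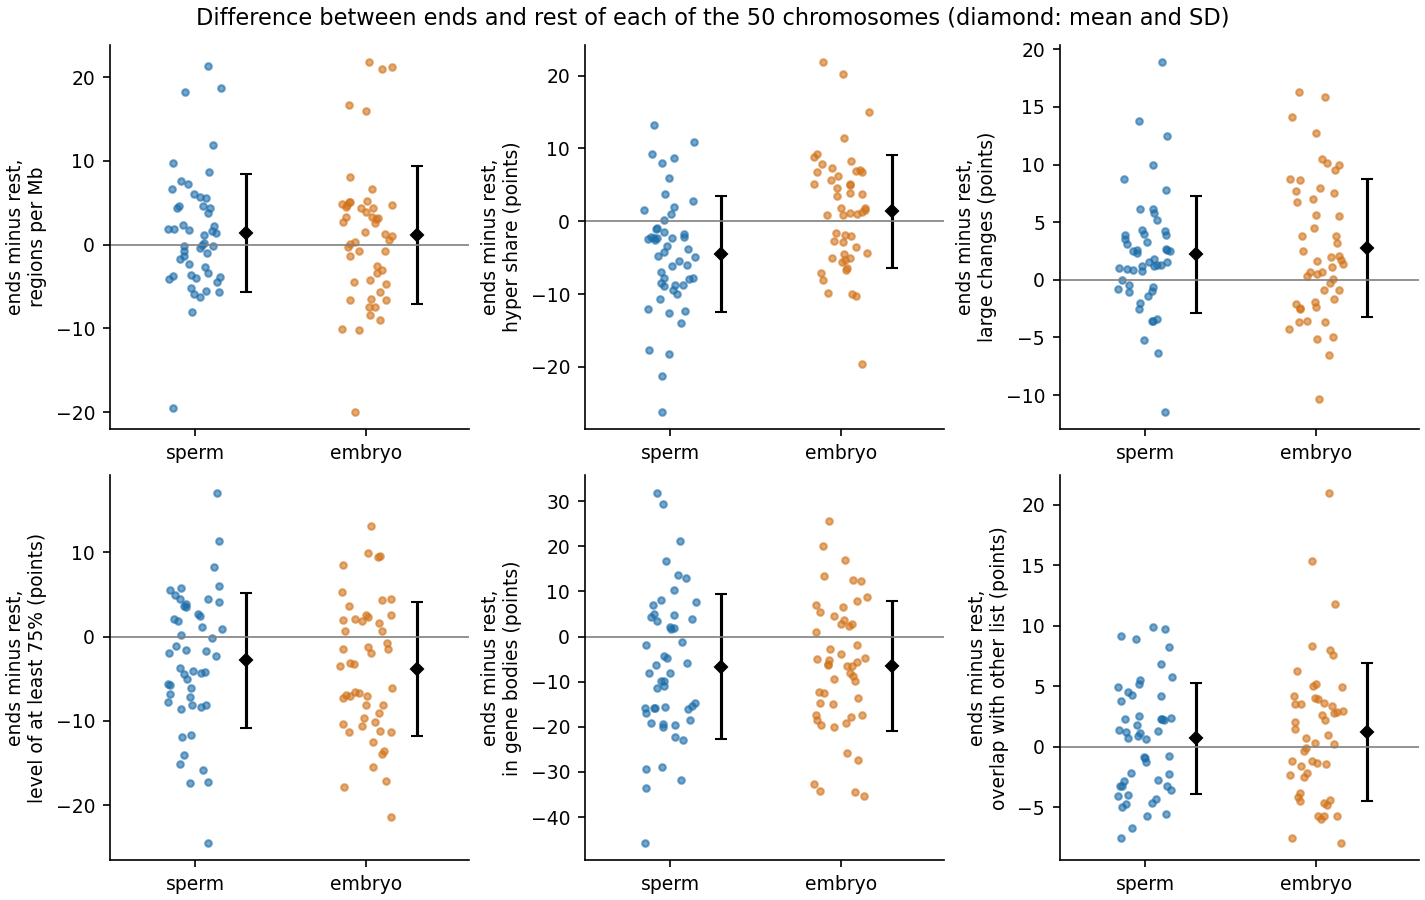
Ends minus rest of the same chromosome for 6 measures (y axes, regions per Mb or points), with each of the 50 chromosomes as a point for sperm and for embryos and a diamond with a bar for the mean and the SD. The points for the hyper share in sperm lie mostly below 0 (38 of 50), those for large changes lie mostly above 0 in both lists (35 and 33 of 50), and those for density scatter on both sides.

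Highly methylated regions made up a smaller part of the ends as a whole, though not of the outermost sequence in sperm. In sperm 76.2% of end regions had a mean level of at least 75%, where 78.6% of all did, and the chromosome means were 76.3 ± 7.87% and 79.1 ± 3.12% (difference −2.81 ± 8.03 points, negative in 30 of 50 chromosomes, adjusted P = 0.0420, permutation test). Within the sperm ends the share was 79.8% in the outermost 0.1 Mb and 81.1% in the next bin, to 0.25 Mb, then 75.6% and 74.4% up to 1 Mb, beside 79.5% beyond 5 Mb, and with ends of 0.5 Mb the difference was −1.35 points (adjusted P = 0.847, permutation test). In embryos the corresponding share was 74.0% at ends, where 77.4% of all regions passed, with chromosome means of 74.2 ± 7.86% and 78.0 ± 2.93% (difference −3.83 ± 7.99 points, negative in 32 chromosomes, adjusted P = 0.00851, permutation test). The median fresh level of embryo regions was 84.5 ± 2.28% at the ends and 85.9 ± 0.676% in the rest, lower at the ends of 35 chromosomes (adjusted P = 0.000520, permutation test). In sperm these medians were 84.2 ± 1.85% and 84.6 ± 0.610% (adjusted P = 0.222, permutation test).

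Since the lists hold only differences of at least 10 points, a hyper region cannot start near 100% and a hypo region cannot start near 0%, and the levels of each class are given as a description. At sperm ends, hyper regions went from a median of 82.8% to 95.7% and hypo regions from 91.6% to 76.4%. At embryo ends the medians were 79.7% and 93.6% in hyper regions and 94.7% and 81.2% in hypo regions. The median absolute difference was 12.7 points at sperm ends and 12.9 points at embryo ends, beside 12.3 and 12.4 points in the rest. The median end region held 5 CpGs in each list. Its mean number of CpGs was 7.09 ± 0.695 per chromosome at embryo ends against 6.83 ± 0.176 in the rest (adjusted P = 0.0337, permutation test) and 6.88 ± 0.573 against 6.73 ± 0.2001 in sperm (adjusted P = 0.215). Region lengths did not differ detectably, with medians of 86.0 ± 15.9 and 90.6 ± 4.21 bp per chromosome in sperm (adjusted P = 0.156, permutation test) and 81.2 ± 14.8 and 80.4 ± 4.44 bp in embryos (adjusted P = 0.775).

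**Figure D3:**
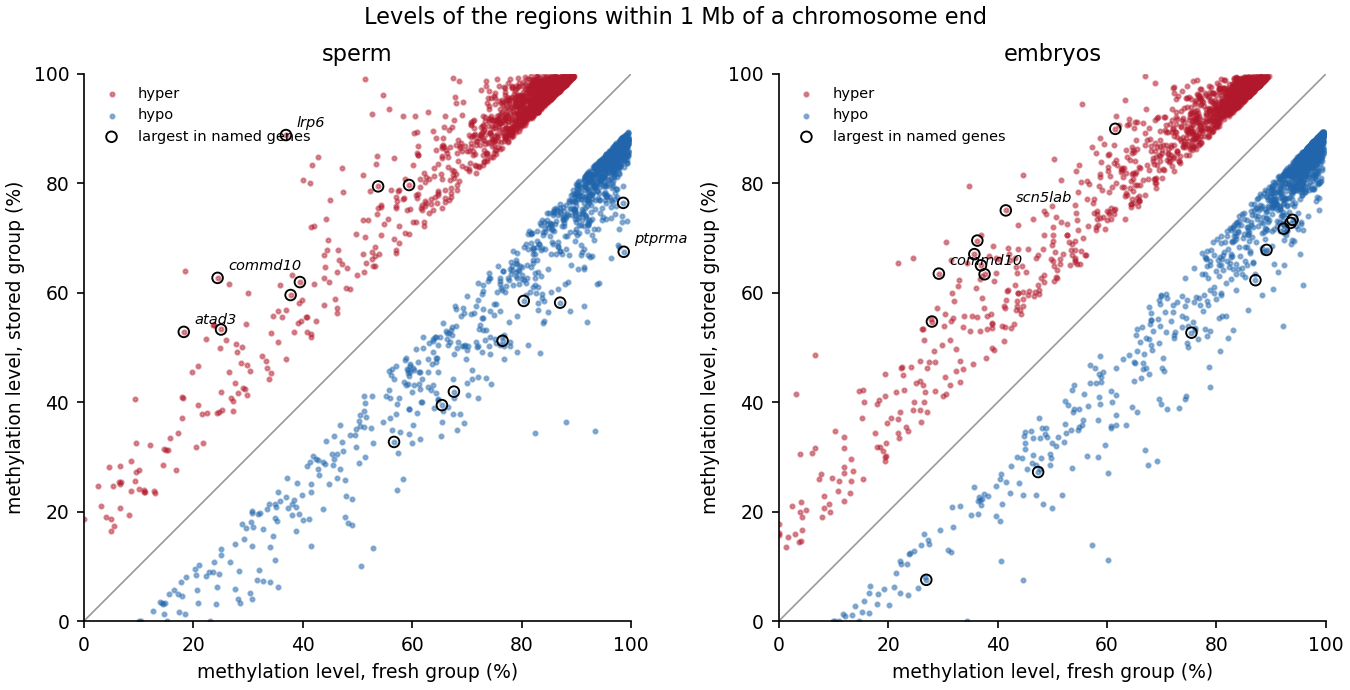
Methylation level of each end region in the fresh group (x axis, %) and in the stored group (y axis, %), for 2580 sperm regions and 2427 embryo regions, with hyper regions above and hypo regions below the diagonal; circles mark the regions with the largest gains and losses in named genes. Most regions crowd at the upper right, at 75% or more, and the empty band along the diagonal is the minimum difference of 10 points of the lists.

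The sperm hyper share had no step at 1 Mb, and the course of the contrasts along the end differed between measures. The sperm hyper share was 57.7% in the outermost 0.1 Mb, 59.3%, 58.0% and 58.2% in the next bins up to 1 Mb, 59.6% at 1 to 2 Mb, 61.6% at 2 to 3 Mb, 60.8% at 3 to 5 Mb and 63.3% beyond 5 Mb. Large differences in sperm were most frequent at 0.5 to 1 Mb (12.8%), at 11.2% at 1 to 2 Mb and at 8.33% beyond 5 Mb, while the outermost 0.1 Mb had 9.74% (6.73 to 13.9) and the next bin, to 0.25 Mb, 7.37% (5.04 to 10.7). Embryos had 14.2% in the outermost 0.1 Mb (10.4 to 19.1), then 10.1%, 12.9% and 11.2% in the bins up to 1 Mb. They had 10.0%, 10.5% and 10.7% in the bins from 1 to 5 Mb and 9.22% beyond 5 Mb. The embryo share at a mean level of at least 75% was 74.5%, 77.3%, 75.6% and 72.4% (69.9 to 74.8) in the bins up to 1 Mb. It was 76.2% (74.5 to 77.9) at 1 to 2 Mb, 76.7% and 76.1% up to 5 Mb and 78.3% beyond. The median fresh level of embryo regions was 84.0%, 85.6%, 85.2% and 84.6% in the bins up to 1 Mb and 85.7% at 1 to 2 Mb. A step was not tested. Between 0.9 and 1.0 Mb from an end the sperm list held 278 regions and the embryo list 301. Between 1.0 and 1.1 Mb they held 290 and 254. Against positions 1 to 3 Mb from an end, a comparison added after the data were seen, none of the 10 results past the threshold stayed past it; the sperm hyper share was then 58.3% at ends and 60.9% beside them (adjusted P = 0.314, permutation test). With ends of 0.5 Mb or with B chromosomes alone none of the 10 stayed past it either, and among sperm regions that differed by at least 15 points the hyper shares of ends and rest differed by −0.502 points (adjusted P = 0.834, permutation test).

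**Figure D4:**
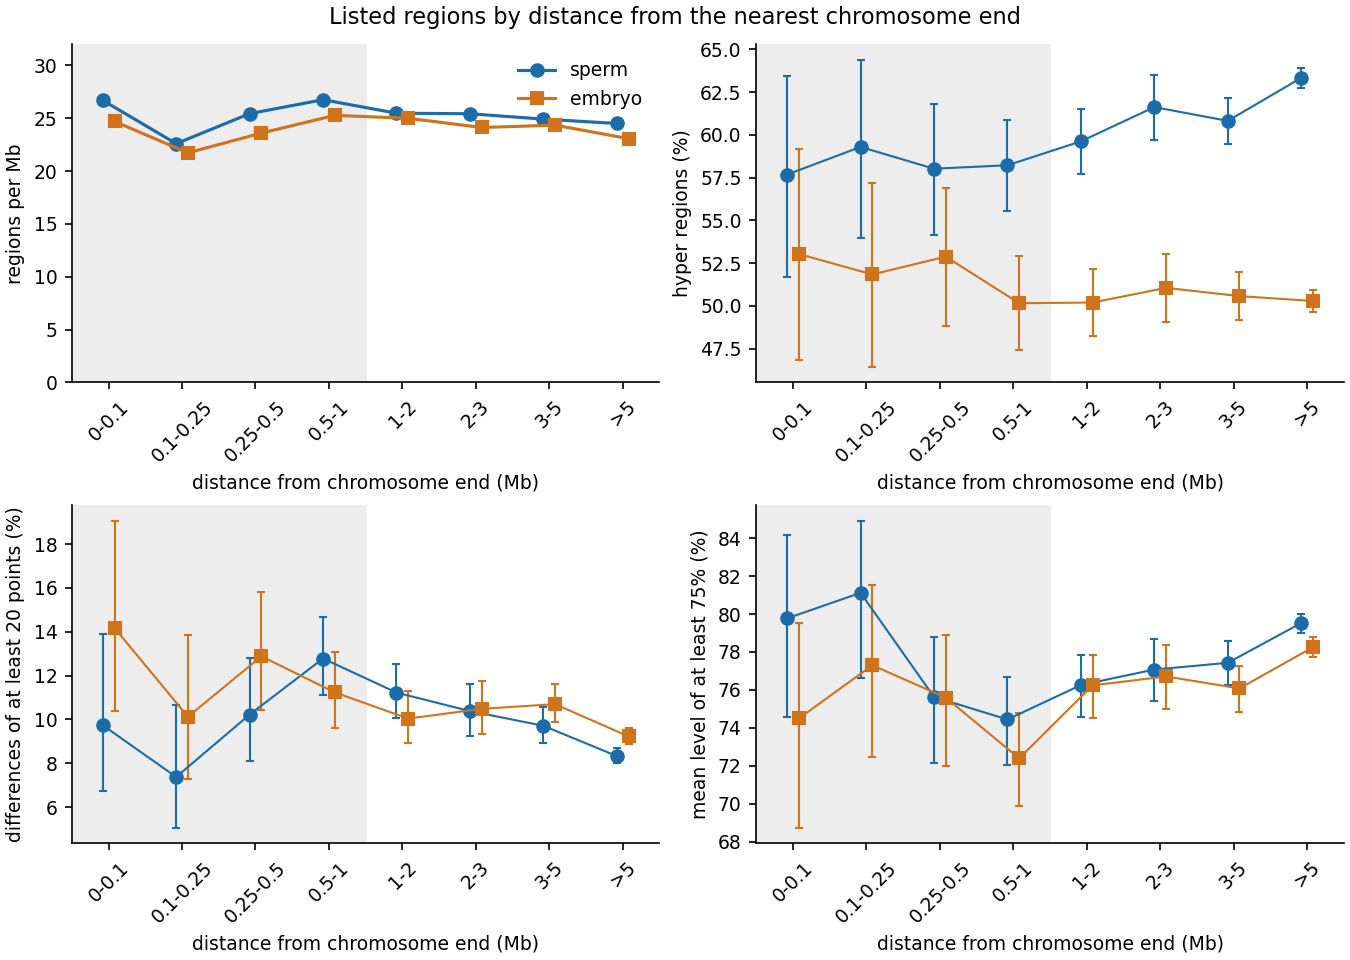
Listed regions by distance from the nearest chromosome end (x axes, Mb; grey, the ends) for sperm (circles) and embryos (squares), with the density per Mb, the hyper share, the share of differences of at least 20 points and the share at a mean level of at least 75%; bars are 95% Wilson intervals. The sperm hyper share goes from 57.7% in the outermost bin to 63.3% beyond 5 Mb, and the embryo share stays between 50.2% and 53.0%.

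Fewer end regions lay in gene bodies, and so did less of the sequence. A gene body is here the whole span of a gene in the RefSeq gene table, with exons and introns together. In sperm 52.8% of end regions overlapped one, where 58.7% of all did, and in embryos 50.6%, where 57.1% did. The chromosome means were 52.9 ± 15.2% and 59.6 ± 5.61% in sperm (adjusted P = 0.0161, permutation test) and 51.7 ± 14.1% and 58.2 ± 5.99% in embryos (adjusted P = 0.00899). Gene bodies covered 47.8% of the ends and 59.8% of the rest. Measured per Mb of gene body, sperm regions were thus denser at the ends (28.5 against 24.4), and outside genes they were sparser (23.4 against 25.1). The embryo values were 25.7 against 22.6 inside and 23.0 against 24.7 outside. In an alternative setting that counted within gene bodies alone, the density at ends was higher than in the rest by 4.48 per Mb in sperm and by 3.31 per Mb in embryos (mean over chromosomes, adjusted P = 0.0125 for each, permutation test). These P values were adjusted within that setting only. Counted outside genes alone, the differences had the opposite sign (−1.53 and −1.02 per Mb).

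The contrast in direction in sperm and that in large differences in both lists were wider inside genes. Those in the direction and in the fresh level of embryo regions were not (fresh level −1.12 points inside and −1.39 points outside). In sperm gene bodies 58.4% of end regions and 64.2% of other regions were hyper, and outside genes 58.1% and 60.2%. In embryo gene bodies the hyper shares were 49.96% and 49.88%, and outside genes 52.75% and 51.07%. Large differences made up 11.5% of end regions and 8.05% of other regions in sperm gene bodies, and 10.7% and 10.1% outside. In embryos the values were 12.6% and 8.71% inside and 10.9% and 10.8% outside. Regions outside genes gave no result past the threshold, and the difference between inside and outside was not tested.

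The ends differed from the rest in the kind of genes they hold. They had 38.0 genes per Mb and the rest 35.9, but protein-coding genes were sparser at the ends (22.3 against 27.7 per Mb). Genes for transfer RNAs, which carry amino acids to the ribosome, were denser (3.91 against 0.706 per Mb), as were genes for small nuclear RNAs of the spliceosome (0.940 against 0.117 per Mb) and pseudogenes (6.51 against 3.12 per Mb). These RNA genes were clustered. Of 391 tRNA genes at ends, 119 lay in the first Mb of B18 and 110 in that of B11, and 84 of 94 snRNA genes lay in the first Mb of B23. Of the tRNA genes at ends 0.512% overlapped a sperm region and 1.28% an embryo region, near the 0.595% and 1.09% of those in the rest, and 1 snRNA gene overlapped an embryo region. Of the 2233 protein-coding genes at ends, 29.3% overlapped a sperm region and 27.3% an embryo region, beside 25.8% and 24.4% of those in the rest.

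Of all 0.1 Mb windows at the ends, the one with the most regions in each list was the first of B13, where the end holds genes for ribosomal RNA. These genes encode the RNA core of the ribosome and occur in vertebrates as tandem arrays of nearly identical copies, in which methylation accompanies silent copies. The first 0.1 Mb of B13 held 14 sperm regions, of which 4 were hyper, and 24 embryo regions, of which 12 were. The median 0.1 Mb window of an end held 2 regions in each list, and 167 of the 1000 windows held none in sperm and 197 none in embryos. All 8 rRNA genes found at chromosome ends lay in this stretch, and 4 of them overlapped regions in each list, beside 4 of 257 rRNA genes elsewhere in sperm and 2 in embryos. The overlapped genes at B13 were 1.865 to 4.136 kb long. Those without a region included genes of 0.154 kb, but also LOC122139516 of 1.866 kb and LOC122139521 of 4.171 kb. Gene length was not taken into account in this comparison. In sperm 4 of the 5 regions in rRNA genes were hypo, with medians of 90.9% (fresh) and 74.3% (stored). In embryos all 5 were hyper, with medians of 72.6% where fresh sperm and 90.6% where stored sperm was used.

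In LOC122139517, an rRNA gene of 1.87 kb (B13, 64026 to 65894), a sperm region at 64111 to 64129 went from 91.1% to 74.3% and the embryo region that covers it, 64108 to 64139, from 73.6% to 93.2%. In LOC122139520, of 4.12 kb (16235 to 20356), a sperm region of 17 CpGs went from 90.9% to 66.9% and an embryo region of 8 CpGs elsewhere in the gene from 72.6% to 95.4%. The single hyper sperm region lay in LOC122139519 and went from 78.7% to 96.3%. Reads from copies this alike may be placed in the wrong copy, so the position of these values is uncertain, and this stretch was picked after its values were seen.

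Named genes at the ends held single regions with large differences. The gene table gives a symbol other than a locus number to 369 protein-coding genes at ends. Of these, 119 (32.2%) overlapped a sperm region, 98 (26.6%) an embryo region and 58 (15.7%) both. The sperm and embryo shares lie near the 29.3% and 27.3% of all protein-coding genes at ends. No such share is given here for genes with a region in both lists, so the 58 cannot be judged. Described here are regions from among the 8 with the largest gain and the 8 with the largest loss in or within 1 kb of a named gene, in each list. Since they were ranked by the difference itself, their values are descriptions. Their deposited p-values, for which the paper's methods name a Fisher test, differed widely. They ran from 1.7e-10 for the embryo region in cacng2b to 0.0488 for that in adss1, close to the limit of listing, and were not adjusted here.

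In sperm the largest gain was in lrp6, which encodes a co-receptor for Wnt ligands (A4, 600417 to 600441), where the level of 7 CpGs went from 36.9% to 88.8%. A region in commd10, of a protein family of endosomal sorting (A8, 534408 to 534463), went from 24.4% to 62.7%. In atad3, an ATPase of the mitochondrial inner membrane, the level went from 18.3% to 52.9%. Gains also included elmo2, whose product activates Rac signalling in cell migration and engulfment (25.1% to 53.3%), the flank of wdr26a, a ubiquitin ligase subunit (39.5% to 61.96%), and ranbp2, a nuclear pore protein (59.4% to 79.7%). A dense region of 18 CpGs in myocd, the myocardin gene that drives cardiac and smooth muscle transcription in mammals, went from 37.8% to 59.6%.

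Losses in sperm were led by ptprma, a receptor tyrosine phosphatase gene (A24, 25261274 to 25261306), from 98.7% to 67.5%. The ion cotransporter gene slc12a2 went from 87.0% to 58.2%, and dnaaf2, a factor for assembly of the dynein arms that move cilia and flagella, from 65.4% to 39.5%. In endou2, an endoribonuclease gene, 12 CpGs went from 67.6% to 41.9%. The gene myocd appears on this side too, since 15 CpGs close to the region above went from 56.7% to 32.8%.

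In embryos the largest gain in a named gene was in commd10, at the site described for sperm. Its level went from 29.3% with fresh sperm to 63.5% with stored sperm. Other gains were in adss1, an enzyme of AMP synthesis (36.3% to 69.5%), trabd2a, a Wnt-cleaving protease (35.8% to 67.1%), fem1a, a ubiquitin ligase substrate receptor (61.5% to 89.96%), and nckap1l, a subunit of the actin-regulating WAVE complex in blood cells (37.0% to 65.0%). The auxiliary glutamate receptor and calcium channel gene cacng2b gained over 15 CpGs (28.0% to 54.8%), and rmdn1, whose region is the last one listed on A24, went from 37.6% to 63.4%. Losses were smaller. They were led by the zinc transporter gene slc30a6 (87.1% to 62.3%), the splicing kinase gene srpk2 (75.4% to 52.7%), mfap2, of elastic microfibrils (89.1% to 67.8%), the RNA-binding protein gene rbms2a (93.5% to 72.8%) and cdkal1, a tRNA-modifying enzyme (92.3% to 71.7%). The homeobox gene msx1a went from 47.4% to 27.3% (8 CpGs).

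Some end genes carried many regions in both directions. The sodium channel gene scn5lab spans 112 kb at the inner border of the last Mb of B24, and its channel carries the upstroke of the heart's action potential in zebrafish. It held 7 sperm regions, of which 3 were hyper, and 11 embryo regions, of which 8 were hyper and 1 lay just beyond 1 Mb. Within about 1 kb near the outer end of this gene (23448035 to 23448970) sperm regions went from 76.5% to 51.2% and from 80.4% to 58.5%, and a region of 15 CpGs beside them went from 53.8% to 79.5%. In embryos a region of 32 CpGs that overlaps the latter went the other way, from 74.3% to 57.5%, while neighbours of 5 and 16 CpGs went from 41.5% to 75.1% and from 39.3% to 62.2%. The gene ptprma, of 208 kb, held 10 sperm regions, 5 in each direction, and 7 embryo regions, of which 6 were hypo. Its largest loss in embryos went from 27.0% to 7.55%, close to the largest sperm loss. These 2 genes were singled out because, like commd10, they are named in both lists. Both are long, and gene bodies at the ends held 28.5 sperm and 25.7 embryo regions per Mb. Whether their counts exceed what their length gives was not tested.

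The largest differences of all often lay outside named genes. A sperm region of 5 CpGs between genes in the last Mb of A2 went from 93.5% to 34.7%, and an embryo region of 7 CpGs between genes in the last Mb of B2 from 60.1% to 11.2%. In the last Mb of B13 a sperm region went from 51.3% to 99.1% and an embryo region from 34.9% to 79.5%, both in unnamed genes.

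Gene families were sorted by symbol, which 369 of the 2233 protein-coding genes at ends have. The counts below thus leave out genes with only a locus number, and few members of each family remained at the ends. Of 4 homeobox genes 2 overlapped a region in each list (meis2a and msx1a), of 12 solute carrier genes 4 did in sperm and 3 in embryos, and both ion channel genes (scn5lab and cacng2b) did in both lists. Of 4 kinase genes at ends 3 overlapped a sperm region, all hyper, and none an embryo region. Of 4 zinc finger and BTB genes 1 overlapped a sperm and 2 an embryo region, of 3 genes of small GTPases and their regulators 1 did in sperm and 0 in embryos, the single cadherin gene did in both lists, and 0 of 2 immune genes and 0 of 1 ribosomal protein genes did. The shares in the rest of the chromosomes were 15.3% and 6.94% for homeobox genes, 20.4% and 17.6% for solute carriers, 51.9% and 39.5% for ion channels, 44.4% and 43.1% for kinases, 37.5% in each list for zinc finger and BTB genes and 26.5% and 31.3% for small GTPases. For cadherins these shares were 52.9% in sperm and 64.7% in embryos. They were 13.1% and 19.05% for immune genes and 11.6% and 4.65% for ribosomal protein genes. Gene length was not taken into account in these shares. The median homeobox gene had 10.8 kb at the ends and 3.98 kb in the rest, and the median ion channel gene 62.8 and 25.1 kb. The single cadherin gene had 78.4 kb, beside a median of 23.3 kb in the rest. Medians were shorter at the ends for kinases (11.9 and 18.4 kb), zinc finger and BTB genes (6.21 and 10.8 kb) and immune genes (5.64 and 5.88 kb). Of 24 symbols of telomere maintenance genes 13 were found in the gene table, 0 of them within 1 Mb of an end. A sperm region overlapped 3 of the 13 and an embryo region 2, where 25.8% and 24.4% of protein-coding genes away from the ends did, so these counts do not stand out. In terfa, which encodes a protein that binds telomere repeats, a sperm region went from 96.9% to 79.7%, and in daxx, a histone chaperone, from 85.7% to 96.6%. The helicase genes wrn and recql4 held embryo regions that went from 96.1% to 84.7% and from 89.3% to 77.9%, and recql4 also held a sperm region that went from 76.1% to 88.2%.

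By the test over chromosomes, sperm and embryo regions did not overlap detectably more or less often at the ends than elsewhere. Of the sperm end regions 227 (8.80%, 7.77 to 9.95) overlapped an embryo region by at least 1 bp. Of all sperm regions 7.74% did, and of those in the rest 7.66%. Of the embryo end regions 229 (9.44%, 8.34 to 10.7) overlapped a sperm region, where 8.11% of all and 8.02% in the rest did. These Wilson intervals, which take regions as independent, exclude the shares of the rest. Neither difference passed the threshold (sperm 8.32 ± 4.36% against 7.62 ± 1.24%, n = 50, adjusted P = 0.413; embryos 9.17 ± 5.51% against 7.97 ± 1.23%, adjusted P = 0.266, permutation test). The overlaps formed 235 pairs at 81 ends. In 60 pairs both lists were hyper, in 70 both were hypo, in 40 sperm was hyper and embryos hypo and in 65 the reverse held. The direction was thus shared by 55.3% of end pairs (48.9 to 61.5) and by 48.3% of the 2786 pairs in the rest (46.4 to 50.1), a contrast that was not tested because a chromosome holds few pairs. The fresh levels of paired regions went together (r = 0.840 over 235 pairs, which share sequence), whereas their differences barely did (r = 0.108).

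In the named-gene pairs with the largest differences, commd10 (38.3 points in sperm, 34.2 in embryos), elmo2 (28.2 and 23.3) and msx1a (−18.9 and −20.2) had the same direction. The pairs in gpatch2 (−18.3 and 22.2), in scn5lab (25.7 and −16.8) and at a group of 3 tRNA genes on A11 (−16.7 and 18.1) had opposite directions. The tRNA pair is the same 15 bp in each list, with 90.1% in fresh and 73.4% in stored sperm and 78.1% and 96.2% in the embryos. The sources used here do not state how reads that match several gene copies were placed, so its position is uncertain too. Where both differences reached 20 points, 13 of 20 end pairs had the same direction (65%, 43.3 to 81.9), beside 114 of 226 in the rest (50.4%).

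**Figure D5:**
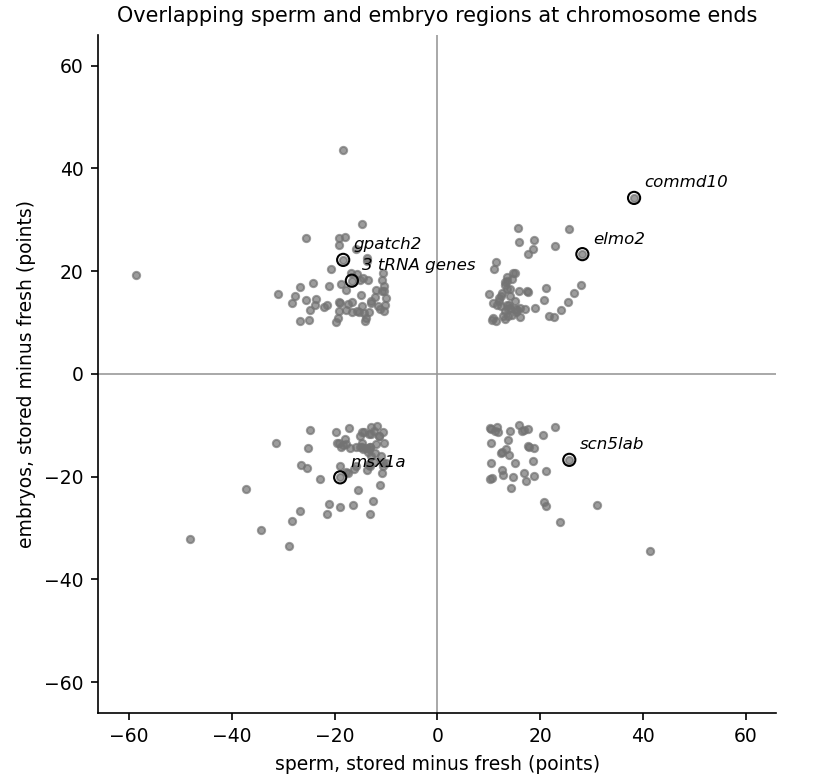
Stored minus fresh difference in sperm (x axis, points) and in embryos (y axis, points) of the 235 overlapping pairs of regions at chromosome ends; circles mark the 6 named pairs. The pairs fill all combinations of direction, with 60 and 70 where the direction was shared and 40 and 65 where it was not.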

How the data were processed

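The authors mapped bisulphite reads with BSMAP (its version is not given in the sources used here), removed duplicates and called CpG regions by comparing the groups. As deposited, a region carries 1 mean methylation level per group as a fraction, printed here as a percentage, a signed difference score, a p-value and a count of CpGs. All listed regions reached 5 CpGs, differed by 10 points or more and had p-values under 0.05. Differences were recomputed here as stored minus fresh, and they equalled the deposited column with its sign turned within 0.001 points. The authors' differences were not used otherwise. Their p-values served as a stricter limit and are otherwise only quoted. Depth per sample and per region is unknown, so no interval for a level was computed.

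Regions were placed by midpoint. Chromosomes of the lists were sorted by identifier and given the names A1 to A25 and B1 to B25 in that order. Genes came from the RefSeq gene table of the same assembly (ASM1834038v1, 55089 genes on chromosomes). The last listed region and the last gene of a chromosome ended within 129.6 kb, but for some chromosomes of like length the match rests on the order alone. This table names no strands, exons or functions, and regions on unplaced sequence (3143 in sperm, 3059 in embryos) were left out.

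Values of the ends and the rest of each chromosome were compared by sign-flip permutation (two-sided, 100000 resamples), with Benjamini-Hochberg adjustment over 26 tests and a threshold of 0.05 (Python 3.11.15, numpy 2.4.6, pandas 2.3.3, scipy 1.17.1). The code was tested on simulated data. The members, lists and named-gene rule (the 8 largest gains and losses per list in or within 1 kb of a gene with a symbol, the 5 ends with most and fewest regions, the 6 named pairs with the largest smaller difference) were chosen with earlier results of these data known. One region that this rule takes is not reported here. In place of each library, which the lists do not give, each chromosome was left out in turn, and 22 alternative settings were run.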

Additional observations from a re-analysis of the deposited data

Results flagged for a closer look

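One result met the criterion of a tested difference between sperm and embryos. The hyper share at the ends less that in the rest of the same chromosome was −4.46 ± 7.96 points in sperm and 1.35 ± 7.80 points in embryos (n = 50 chromosomes). The difference of −5.81 ± 9.88 points was negative in 36 chromosomes and positive in 14 (adjusted P = 0.00117, sign-flip permutation test). With any 1 chromosome left out it stayed between −6.19 and −5.27 points. It fell below the threshold under 8 of 19 alternatives, among them ends of 0.5 Mb (−5.98 points, adjusted P = 0.129) and differences of at least 15 points (−2.29 points, adjusted P = 0.834, permutation tests). Gene bodies covered 47.8% of the ends and 59.8% of the rest, and the part of this in the difference was not tested. Within gene bodies alone the difference was −5.36 points (adjusted P = 0.0457, permutation test).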

How the results depend on the processing

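The lists give neither depth nor library values, so leaving out each library was not possible and every P value measures the spread between chromosomes. No paired analysis was possible because the columns hold 1 value per group and carry no replicate number. Density per 1000 CpGs was not run, since no genome was used here. With each chromosome left out in turn, all 10 results past the threshold kept their sign. Their largest unadjusted P was 0.0314 (permutation test), for the highly methylated share in sperm. As these P values were not adjusted, they do not show whether each result stayed past the threshold. Of 485 values under 22 alternatives, 328 kept their sign and their side of the threshold, 90 fell below it, 9 newly passed it and 58 turned sign. All 10 stayed past it with ends set by the last gene or region, with any overlap with an end, and without the regions that set the ends. The mean in place of the median, 50% overlap of the shorter region and merging regions closer than 100 bp changed no call and no sign. Subsets hold fewer regions or chromosomes, and otherwise the cause of a lost call was not tested.

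Below, values are ends minus rest, or the difference named, in points, regions per Mb, bp or CpGs. With ends of 0.5 Mb, 0 of 10 stayed past the threshold, and below it fell the highly methylated share (sperm −1.35, embryo −2.16), hyper share (sperm −4.36, sperm less embryo −5.98), large-change share (sperm 0.210, embryo 3.26), gene body share (sperm −6.37, embryo −6.84), fresh level (embryo −0.729) and CpG number (embryo 0.234). Of opposite sign were the overlap share (sperm −0.176), CpG number (sperm −0.0821) and density (sperm first less last Mb −0.320, embryo first less last Mb −0.360, sperm A less B −1.28). With ends of 2 Mb, 10 of 10 stayed past the threshold. New calls were the length (sperm −6.53). Signs were turned for the length (embryo −2.71), density (sperm less embryo −0.342), large-change share (sperm less embryo 0.914) and highly methylated share (sperm less embryo −0.157). Against the rest beyond 5 Mb, 10 of 10 stayed past the threshold. Newly past it came the CpG number (sperm 0.220) and length (sperm −6.74). The sign turned for the length (embryo −1.20) and density (sperm less embryo −0.0230). Among differences of at least 15 points, 0 of 10 stayed past the threshold, and below it fell the hyper share (sperm −0.502, sperm less embryo −2.29), large-change share (sperm 3.00, embryo 4.05), gene body share (sperm −4.01, embryo −3.76) and fresh level (embryo −1.55). Of opposite sign were the fresh level (sperm 0.618), highly methylated share (sperm 1.69, embryo 0.402), CpG number (sperm −0.0846, embryo −0.0829), length (sperm 3.69) and density (sperm first less last Mb −0.380). Among differences of at least 20 points, 0 of 8 stayed past the threshold, and below it fell the hyper share (sperm −0.340, sperm less embryo −8.26) and gene body share (embryo −0.856). New calls were the density (sperm 0.721). Signs were turned for the fresh level (sperm 1.41, embryo 0.806), highly methylated share (sperm 3.53, embryo 4.35, sperm less embryo −0.810), overlap share (sperm −4.30, embryo −3.51), length (sperm 12.7), gene body share (sperm 0.291), CpG number (embryo −0.0382) and density (sperm first less last Mb −0.180, embryo first less last Mb −0.0800, sperm A less B −0.1). Among regions with a deposited p-value below 0.001, 4 of 10 stayed past the threshold, and below it fell the highly methylated share (sperm −3.47), hyper share (sperm −5.22), gene body share (sperm −5.58, embryo −6.61), large-change share (embryo 3.07) and CpG number (embryo 0.251). Newly past it came the fresh level (sperm −3.01) and length (embryo 12.8). The sign turned for the length (sperm 2.49), large-change share (sperm less embryo 2.90) and density (sperm A less B −0.120). Among regions of at least 7 CpGs, 1 of 10 stayed past the threshold, and below it fell the highly methylated share (sperm −2.60, embryo −2.92), hyper share (sperm −4.30, sperm less embryo −6.01), large-change share (sperm 2.15, embryo 3.36), gene body share (sperm −4.41, embryo −3.80) and CpG number (embryo 0.297). New calls were the length (embryo 15.1). On A chromosomes, 3 of 10 stayed past the threshold, and below it fell the highly methylated share (sperm −2.53), hyper share (sperm −4.25), large-change share (sperm 1.68, embryo 2.85), gene body share (sperm −4.11, embryo −6.37) and CpG number (embryo 0.384). Of opposite sign were the density (sperm first less last Mb −0.440). On B chromosomes, 0 of 10 stayed past the threshold, and below it fell the highly methylated share (sperm −3.10, embryo −2.64), hyper share (sperm −4.67, sperm less embryo −5.13), large-change share (sperm 2.73, embryo 2.63), gene body share (sperm −9.25, embryo −6.63), fresh level (embryo −0.994) and CpG number (embryo 0.121). Signs were turned for the length (embryo −0.620), large-change share (sperm less embryo 0.0947) and highly methylated share (sperm less embryo −0.454). In the first Mb, 0 of 10 stayed past the threshold, and below it fell the highly methylated share (sperm −2.38, embryo −2.96), hyper share (sperm −4.14, sperm less embryo −4.98), large-change share (sperm 1.81, embryo 2.19), gene body share (sperm −8.03, embryo −9.29), fresh level (embryo −2.43) and CpG number (embryo 0.254). The sign turned for the length (sperm 1.34) and density (sperm less embryo −0.186, sperm A less B −1.64, embryo A less B −0.880). In the last Mb, 2 of 10 stayed past the threshold, and below it fell the highly methylated share (sperm −2.30, embryo −4.09), large-change share (sperm 2.46, embryo 3.08), gene body share (sperm −5.65, embryo −4.35), fresh level (embryo −2.07) and CpG number (embryo 0.219). Of opposite sign were the length (embryo −1.75). Inside gene bodies, 7 of 8 stayed past the threshold, and below it fell the fresh level (embryo −1.12). Newly past it came the density (sperm 4.48, embryo 3.31). Signs were turned for the density (embryo A less B −0.806). Outside gene bodies, 0 of 8 stayed past the threshold, and below it fell the highly methylated share (sperm −1.49, embryo −2.26), hyper share (sperm −1.75, sperm less embryo −3.93), large-change share (sperm 0.892, embryo 1.39) and fresh level (embryo −1.39). The sign turned for the density (sperm −1.53, embryo −1.02, sperm less embryo −0.505, sperm A less B −0.170), length (sperm 1.79) and CpG number (embryo −0.0498).

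The last 3 alternatives were chosen after seeing the data. Among highly methylated regions, 6 of 8 stayed past the threshold, and below it fell the CpG number (embryo 0.161). Of opposite sign were the fresh level (sperm 0.136, embryo 0.292) and density (embryo −0.0300). Without B3, B13 and B19, 9 of 10 stayed past the threshold, and below it fell the highly methylated share (sperm −2.72). Signs were turned for the density (sperm first less last Mb −0.340). Against the rest from 1 to 3 Mb, 0 of 10 stayed past the threshold, and below it fell the highly methylated share (sperm −0.910, embryo −2.76), hyper share (sperm −2.58, sperm less embryo −3.65), large-change share (sperm 0.461, embryo 2.04), gene body share (sperm −4.22, embryo −3.95), fresh level (embryo −1.08) and CpG number (embryo 0.0707). The sign turned for the fresh level (sperm 0.0267), overlap share (sperm −0.169), length (sperm 1.35) and density (embryo −0.295).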
